A study of Mus musculus with 5 samples.

Results

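The genes described here are 8 genes of cholesterol synthesis and its sterol control, Hmgcs1, Idi1, Fdft1, Sqle, Lss, Cyp51, Srebf2 and Insig1. They were chosen by name with earlier results of these data known, so their counts and median are not those of an independent list. Each was read from its brightest probe set paired with that symbol alone. Of the 8, 7 had such a probe set, out of 22180 genes measured, and each of the 7 had only 1. Idi1, whose probe set is paired with a second symbol, was not analysed here. The working name of the group includes the low-density lipoprotein (LDL) receptor, but no lipoprotein receptor is among the 8, and the LDL receptor and HMG-CoA reductase genes were not analysed here.

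Expression was measured on 5 one-colour Affymetrix arrays, 2 from WT mice (Polgtm1Lrsn wt/wt) and 3 from Polg mutant mice (Polgtm1Lrsn mt/mt), all C57BL/6. Polg encodes the polymerase that copies mitochondrial DNA, and the mutant allele impairs its proofreading. Marrow cells were depleted of CD45-bearing leukocytes and then selected for the erythroid antigen Ter119. The design text calls the mice phlebotomized, the title calls the mutants aged, and no age or bleeding schedule was given in the sources used here. All mice of both groups came from 1 breeding scheme, Atg7 flox/flox on both sides with a father Epo-cre ki/wt, and the labels do not say which pups carried Cre. Atg7 read 7.74 on 4 arrays and 7.71 on WT replicate 2. Polg read 6.97 on every array, so this probe set does not distinguish the genotypes. The equal values of both genes are exact ties of unknown origin, and they are no check of Cre or genotype. The labels do not say that the arrays are separate animals, so the p-values rest on a spread between samples that may be technical.

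Cells make cholesterol from acetyl-CoA by way of mevalonate, the isoprenoid farnesyl diphosphate, squalene and lanosterol. The factor SREBP-2, encoded by Srebf2, turns these genes on when sterols in the endoplasmic reticulum are low: its escort SCAP carries it to the Golgi, where proteases release it, and INSIG proteins hold the pair back when sterols are plentiful. Developing red cells need cholesterol for their membrane, and they lose the organelles that make it as they mature into reticulocytes and red cells.

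In the Polg mutant arrays Lss, which closes squalene epoxide into lanosterol, was 1.45-fold higher, and Hmgcs1, Sqle and Srebf2 were each between 1.14-fold and 1.16-fold higher, with all 3 mutant arrays above both WT arrays in each of these 4 genes. Cyp51 was 1.36-fold higher with groups that shared a value. Cyp51 on all arrays and Lss in WT lay near the array medians, where signal may be background. Both folds may therefore understate a difference or hold noise, which was not tested. Insig1 was lower on every mutant array, by 0.18 on the log2 scale, and Fdft1 by 0.16 with groups that shared a value. None of the 7 passed the threshold, an adjusted p under 0.05 by limma's moderated test over all 22180 genes, and the smallest adjusted p among them was 0.319. That test called 0% of all genes. At an unadjusted p under 0.05 it called 1 of the 7 as higher, Lss, and 0 as lower, where 4.18% of all genes were called higher and 5.33% lower.

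The groups did not overlap in 4 of the 7 genes with the mutant higher and in 1 with the mutant lower. Over all genes these shares were 8.36% and 9.73%. Exact ties between arrays are common in the deposited table, and bright genes such as Fdft1 hold them too. The shares were also taken over the 8340 genes with 2 or more arrays above a log2 of 6, where they were 16.7% and 20.3%. Ties remain among these genes. Cyp51 lies outside that class, and Lss is in it through its mutant arrays alone, since both WT arrays read below 6, so the members' counts are not read against these 2 shares. The median difference of the 7 was 0.21 log2 units, against a median of 0 over all genes tested, and single differences ran from -0.18 to 0.54.

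The promoters of 4 of the genes are shown because SREBP is known to act at promoters of this pathway, and because these genes had the smallest p-values among the members with an entry in the promoter table. Each is the 250 bases before the gene's start from RefSeq, GRCm38.p6, 5′ to 3′ on the gene's own strand: Hmgcs1 at chr13:119690101-119690350 (plus strand), Srebf2 at chr15:82147019-82147268 (plus), Lss at chr10:76531355-76531604 (plus) and Cyp51 at chr5:4104698-4104947 (minus). Capitals mark matches, on either strand, to TCACNCCAC, CACCCCAC and TCACCCCA (forms of the sterol response element bound by SREBP), CCAAT (the NF-Y box), GGGCGG (the Sp1 box) and TCACGTGA (an E-box form).
Hmgcs1: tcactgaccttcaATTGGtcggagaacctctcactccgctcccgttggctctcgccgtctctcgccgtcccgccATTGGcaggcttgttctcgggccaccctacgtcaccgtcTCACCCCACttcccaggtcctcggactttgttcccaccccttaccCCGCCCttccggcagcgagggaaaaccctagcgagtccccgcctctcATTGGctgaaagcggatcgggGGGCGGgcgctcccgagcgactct
Srebf2: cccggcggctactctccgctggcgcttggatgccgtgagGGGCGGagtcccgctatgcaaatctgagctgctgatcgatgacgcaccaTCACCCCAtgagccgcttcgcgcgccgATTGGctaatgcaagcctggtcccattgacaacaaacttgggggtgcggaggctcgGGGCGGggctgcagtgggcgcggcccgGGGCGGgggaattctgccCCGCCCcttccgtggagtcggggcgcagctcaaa
Lss: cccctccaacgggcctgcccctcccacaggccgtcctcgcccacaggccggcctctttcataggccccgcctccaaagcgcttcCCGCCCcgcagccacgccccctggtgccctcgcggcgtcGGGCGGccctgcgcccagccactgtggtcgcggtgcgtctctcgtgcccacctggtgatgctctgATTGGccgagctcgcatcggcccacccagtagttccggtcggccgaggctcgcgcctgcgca
Cyp51: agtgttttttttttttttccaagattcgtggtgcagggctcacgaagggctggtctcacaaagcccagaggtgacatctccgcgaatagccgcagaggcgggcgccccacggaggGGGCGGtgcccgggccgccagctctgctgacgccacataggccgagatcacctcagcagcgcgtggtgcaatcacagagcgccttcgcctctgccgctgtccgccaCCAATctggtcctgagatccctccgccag
The sterol element forms overlap one another, and TCACCCCA was added to the search after the sequences had been seen. Hmgcs1 held TCACNCCAC once, on the gene's strand from 137 to 129 bases before the start, which also gives its matches to CACCCCAC and TCACCCCA. Of all 32851 promoters of this length, 1.05% held TCACNCCAC, 2.58% CACCCCAC and 1.34% TCACCCCA. Srebf2 held TCACCCCA once, from 162 to 155 bases before the start, and matched neither of the other forms. Lss and Cyp51, and Insig1 and Idi1, which were searched but are not printed, held none of these letter strings in the window, and TCACGTGA was found in none of the 6 (0.785% of all promoters). The NF-Y box was in all 6, with 3 copies in Hmgcs1 and 2 in Idi1, against 33.8% of all promoters, and the Sp1 box was also in all 6, with 4 copies in Srebf2, against 32.7%. Promoters of Sqle and Fdft1 were not used here.

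Hmgcs1 encodes the cytosolic HMG-CoA synthase, the condensing step ahead of mevalonate. The WT arrays read 6.22 and 6.03 on the log2 scale, and the mutant arrays 6.30, 6.30 and 6.40. The 3 mutant arrays lay above both WT arrays, with WT replicate 2 the lowest, and mutant replicates 1 and 2 held exactly the same value. The difference was 0.21 ± 0.07 (SE; 95% interval -0.0014 to 0.43; limma adjusted p = 0.529), and it was 0.12 without WT replicate 2 and 0.31 without WT replicate 1.

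Fdft1 encodes squalene synthase, which joins farnesyl units in the first step committed to sterols. WT levels were 10.17 and 10.05, and mutant levels 10.05, 10.05 and 9.76. WT replicate 2 and mutant replicates 1 and 2 held the same value, and only mutant replicate 3 lay below both WT arrays. The difference was -0.16 ± 0.12 (SE; 95% interval -0.49 to 0.18; limma adjusted p = 0.643). Without mutant replicate 3 it was -0.061, and without WT replicate 1 -0.095.

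Sqle encodes squalene epoxidase, an oxygen-dependent and often rate-limiting step. Levels in WT were 7.02 and 7.03, against 7.08, 7.41 and 7.16 in the mutant. The WT arrays were nearly equal, and most of the gap came from mutant replicate 2. The difference was 0.19 ± 0.12 (SE; 95% interval -0.14 to 0.52; limma adjusted p = 0.638), or 0.093 without mutant replicate 2.

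Lss encodes lanosterol synthase, the cyclase that forms the sterol rings. It read 5.72 and 5.60 in WT, a mean of 5.66 ± 0.08 (SD, n = 2), and 6.40, 6.10 and 6.10 in mutant arrays, a mean of 6.20 ± 0.17 (SD, n = 3). The gap between the highest WT and the lowest mutant array was wider than the spread within either group, and mutant replicates 2 and 3 held the same value. The difference was 0.54 ± 0.12 (SE; 95% interval 0.19 to 0.88), with an unadjusted limma p of 0.0130 and an adjusted p of 0.319. Leaving out each array in turn gave 0.44 to 0.60, and the unadjusted p was 0.0572 without WT replicate 1 and 0.0884 without WT replicate 2. With a single WT array the spread comes from the mutant arrays alone, and in those fits the 1 member at an unadjusted p under 0.05 was Hmgcs1 (0.0225) without WT replicate 1 and Srebf2 (0.0344) without WT replicate 2.

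Cyp51 encodes the lanosterol demethylase, a cytochrome P450 that uses oxygen and heme. The WT values were 5.37 and 4.98 and those of the mutant 5.78, 5.37 and 5.72. Mutant replicate 2 held exactly the value of WT replicate 1, and the other mutant arrays were higher than both WT arrays. The difference was 0.45 ± 0.20 (SE; 95% interval -0.12 to 1.01; limma adjusted p = 0.638), and it ran from 0.25 without WT replicate 2 to 0.64 without WT replicate 1. Array medians over genes were 5.32 to 5.35, which the levels of Cyp51, and those of Lss in WT, lay close to.

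Srebf2 itself read 8.79 and 9.03 in WT, against 9.05, 9.21 and 9.13 in the mutant. All mutant arrays lay above both WT arrays, although mutant replicate 1 and WT replicate 2 were close. The difference was 0.22 ± 0.09 (SE; 95% interval -0.048 to 0.49; limma adjusted p = 0.638), and it was 0.10 without WT replicate 1 and 0.34 without WT replicate 2.

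Insig1 encodes the endoplasmic reticulum protein that retains SCAP and SREBP, and is itself a known SREBP target. WT arrays read 7.42 and 7.57 and mutant arrays 7.19, 7.39 and 7.37. It was the 1 gene of the 7 with every mutant array below both WT arrays, with mutant replicate 2 just under WT replicate 1. The difference was -0.18 ± 0.09 (SE; 95% interval -0.44 to 0.08; limma adjusted p = 0.638), and it was -0.10 without WT replicate 2 and -0.11 without mutant replicate 1. Insig1 and Srebf2 thus had differences of opposite sign, neither past the threshold.

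**Figure D1:**
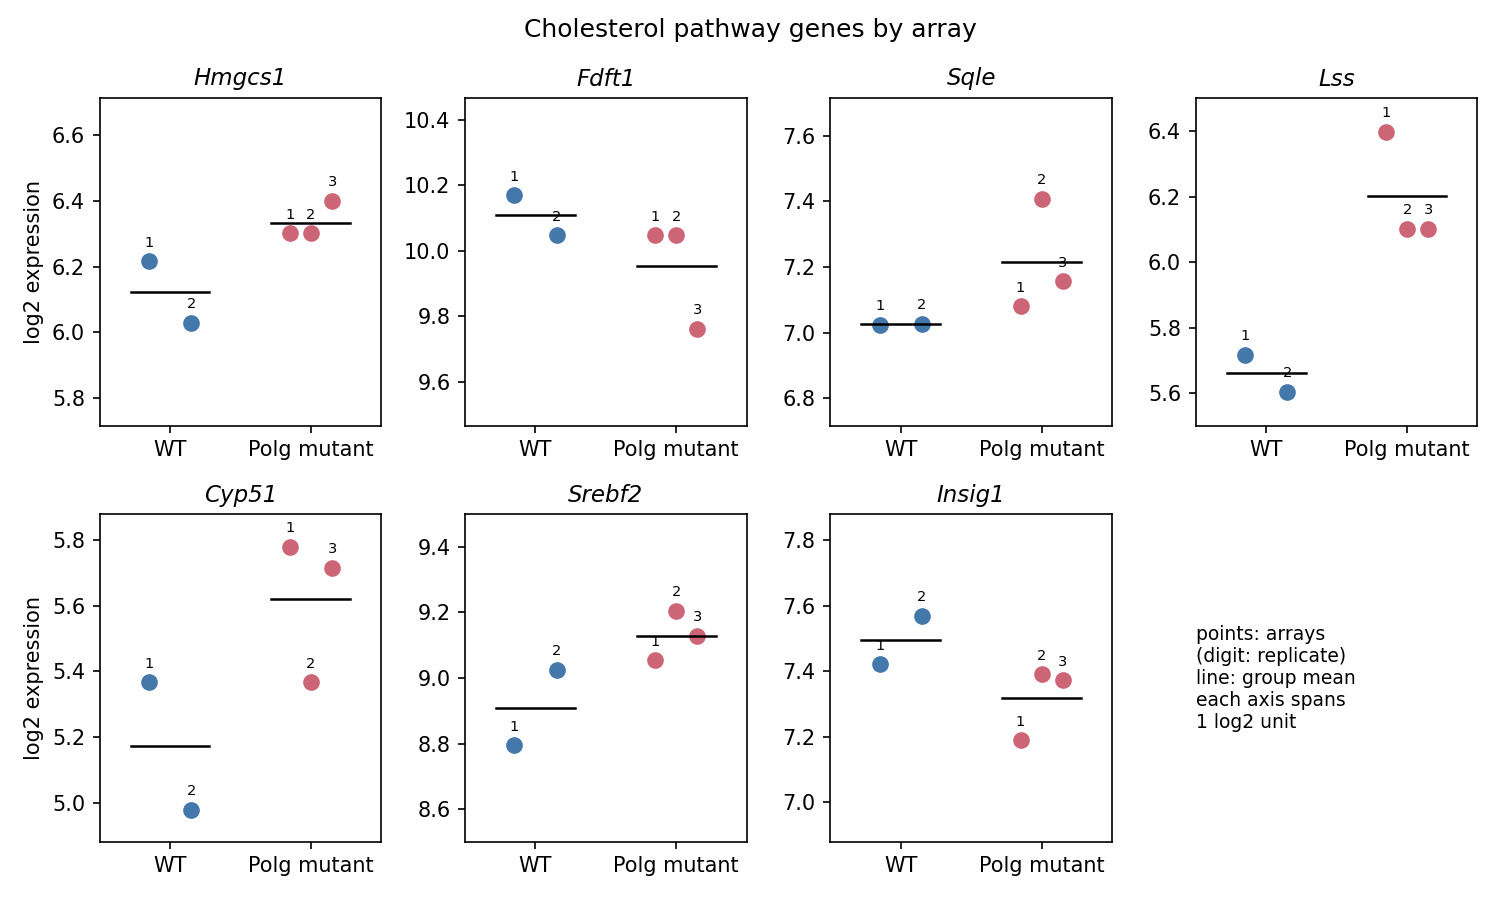
Log2 expression of the 7 measured genes in each array, with WT in blue and Polg mutant in red, a point for each array (the digit is its replicate) and a line at the group mean; every axis spans 1 log2 unit. The widest separation is in Lss, where WT lies at 5.60 and 5.72 and the mutant from 6.10 to 6.40, while Cyp51 and Fdft1 have a value shared between groups.

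By array, the mean of the 7 genes was 7.24 and 7.18 in WT, against 7.41, 7.40 and 7.38 in the mutant. The groups did not overlap in this mean. That separation depends on Lss and Cyp51, which had the largest differences of the 7 (0.54 and 0.45 log2 units). Cyp51, and Lss in WT, lay near the array medians. The genes that make up the mean did not order the mutant arrays alike: mutant replicate 1 was highest for Lss and Cyp51 and lowest for Insig1, replicate 2 was highest for Sqle and Srebf2, and replicate 3 was highest for Hmgcs1 and lowest for Fdft1. Beside them, 14 of 16 neutrophil marker genes had a higher mean in the mutant, with a median difference of 0.67 log2 units. Over all genes 10330 of 22180 had a higher mean. The groups overlapped in 15 of the 16 neutrophil genes, and in the neutrophil mean by array.

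Of 15 further enzymes between acetyl-CoA and cholesterol, 12 were measured. Their median difference was 0.01 log2 units, and 0 passed the threshold. At an unadjusted p under 0.05, 2 were higher and 1 lower, where 4.18% and 5.33% of all genes were. The groups did not overlap in 4 with the mutant higher and 1 with it lower, where the shares of all genes were 8.36% and 9.73%. Over genes with 2 or more arrays above a log2 of 6, a class that holds 9 of the 12, they were 16.7% and 20.3%. The shares over all genes also stand beside the counts of the gene lists that follow. Fdps, which makes farnesyl diphosphate for sterols and for other isoprenoids, read 7.62 and 7.90 in WT and 8.39, 8.20 and 8.07 in the mutant. All mutant arrays were above both WT arrays, by 0.46 ± 0.14 (SE, limma adjusted p = 0.461). Sc5d, the lathosterol desaturase near the end of the pathway, read 6.75 and 6.50 in WT and 7.07, 7.16 and 6.88 in the mutant, a difference of 0.41 ± 0.13 (SE, limma adjusted p = 0.476).

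Lbr encodes a sterol C14 reductase that is also an inner nuclear membrane protein holding heterochromatin. It read 12.44 and 12.25 in WT and 11.50, 11.67 and 11.67 in the mutant. Every mutant array was below both WT arrays, by 0.73 log2 units or 1.66-fold, with a limma adjusted p of 0.217. Tm7sf2, which encodes the other C14 reductase, differed by 0.05 ± 0.09 (SE, limma adjusted p = 0.842). Enzymes of the mevalonate steps next to Hmgcs1 had small differences, at -0.03 for Mvk, -0.05 for Pmvk and 0.12 for Mvd. Over the 17 measured enzymes of the whole route, members included, 10 means were higher and 7 lower in the mutant, with a median of 0.05.

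**Figure D2:**
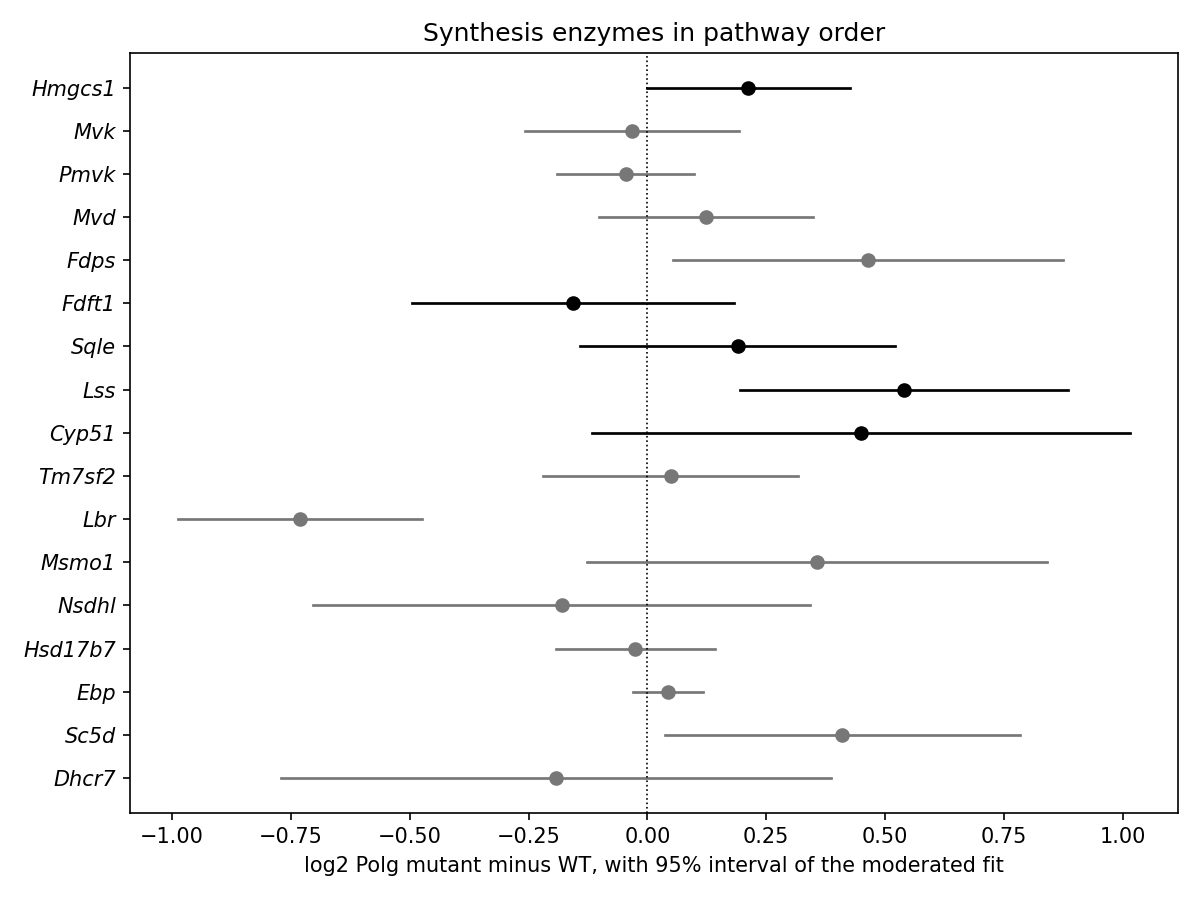
Log2 difference, Polg mutant minus WT, with the 95% interval of limma's moderated fit, for 17 enzymes from HMG-CoA synthase (top) to the last reductase (bottom); members are black and the other enzymes grey. Lss, Fdps and Sc5d have intervals above 0 and Lbr (-0.73) an interval below it, none past an adjusted p of 0.05.

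In the machinery that controls SREBP, 11 of 12 listed genes were measured, with a median difference of 0.05 and 0 past the threshold. At an unadjusted p under 0.05, 2 were higher and 3 lower. Pgrmc1, a heme-binding membrane protein that interacts with INSIG1 and with P450 enzymes, was higher by 0.46 ± 0.07 (SE, limma adjusted p = 0.248), from 8.02 and 7.92 in WT to 8.54, 8.36 and 8.39. Ubxn4, a factor of endoplasmic-reticulum-associated degradation, was higher by 0.52 ± 0.12 (SE, limma adjusted p = 0.340). Rnf139 and Rnf145, membrane ubiquitin ligases that take part in the sterol-driven removal of HMG-CoA reductase, differed by -0.57 ± 0.12 and -0.32 ± 0.06 (SE), and Mbtps1, the site-1 protease that cuts SREBP, by -0.18 ± 0.04, with limma adjusted p-values of 0.288, 0.280 and 0.309.

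Scap was higher on every mutant array, at 7.51, 7.38 and 7.43 against 7.33 and 6.94, a difference of 0.31 ± 0.14 (SE, limma adjusted p = 0.638). It was 0.11 without WT replicate 2, 0.50 without WT replicate 1, and 0.14 as the mean of its probe sets. Insig2, which like Insig1 retains SCAP, differed by -0.13 ± 0.09 (SE), and by -0.058 without WT replicate 1, -0.077 without mutant replicate 2 and -0.21 without WT replicate 2. The difference for Srebf1, the gene of the related factor SREBP-1, was 0.05 ± 0.12 (SE). The sign for Srebf1 depended on WT replicate 2, without which it was -0.14, and on the scaling, since renewed quantile normalization gave -0.0014.

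Of 12 genes of lipoprotein uptake and lysosomal cholesterol export, 9 were measured, with a median of 0.06, 0 past the threshold, and 1 higher and 0 lower at an unadjusted p under 0.05. That gene was Lrp8, a receptor of the LDL receptor family that binds apolipoprotein E and reelin. It read 7.13 and 7.48 in WT and 7.94, 7.60 and 7.91 in the mutant, a difference of 0.51 ± 0.17 (SE, limma adjusted p = 0.510), or 0.33 without WT replicate 1.

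**Figure D3:**
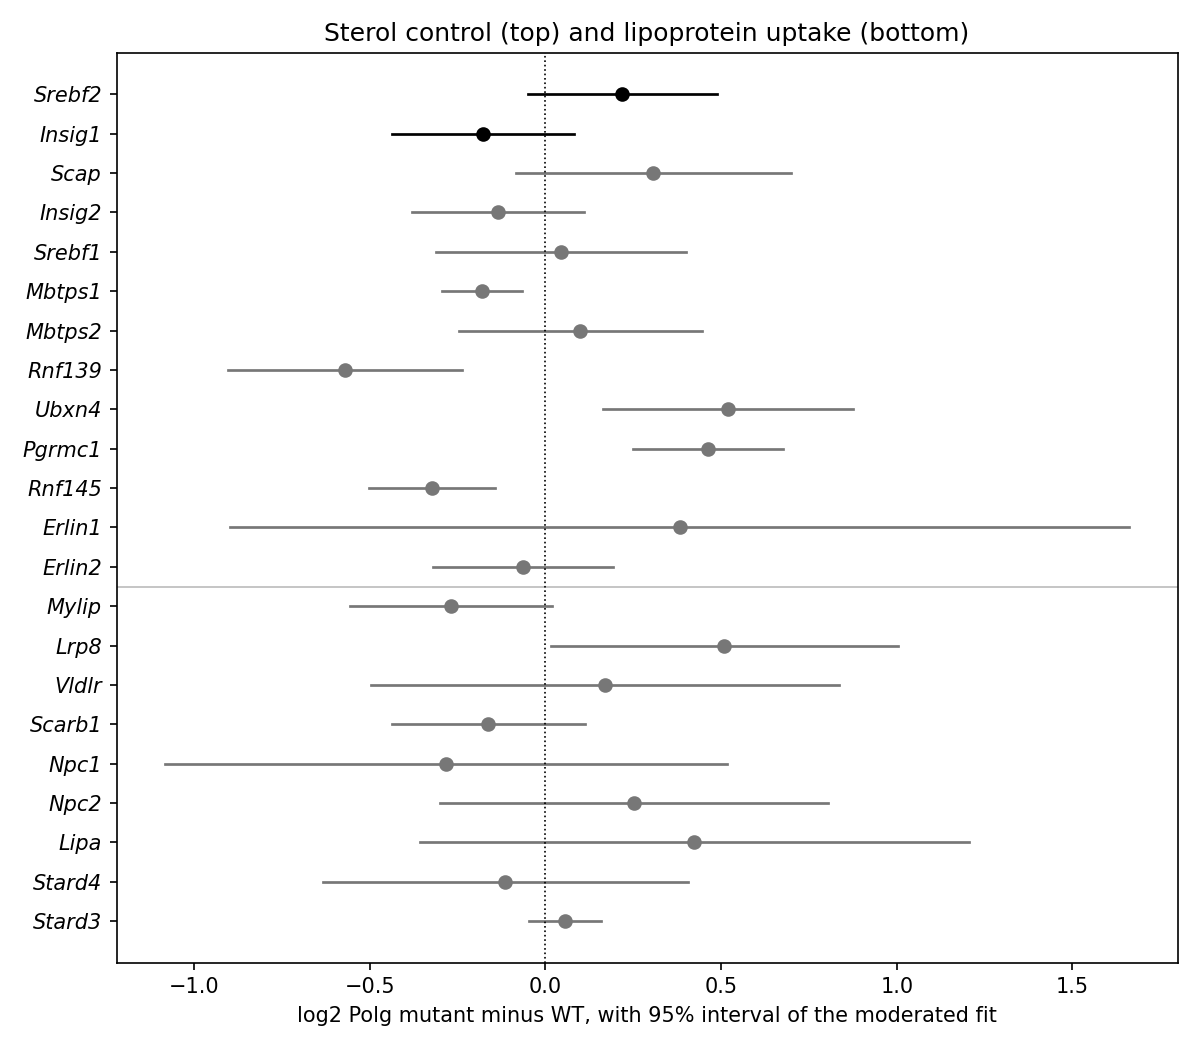
Log2 difference, Polg mutant minus WT, with the 95% interval of limma's moderated fit, for genes of sterol control (above the grey line; Srebf2 and Insig1 in black) and of lipoprotein uptake and lysosomal export (below it). Pgrmc1 (0.46) and Ubxn4 (0.52) lie above 0 and Rnf139 (-0.57), Rnf145 (-0.32) and Mbtps1 (-0.18) below it, none past an adjusted p of 0.05.

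Genes of sterol efflux, storage and the liver X receptor pathway had a median of -0.01 over 10 measured of 13, and 0 were higher and 1 lower at an unadjusted p under 0.05. This was Abcg4, an ATP-binding cassette transporter that exports sterols, at 10.81 and 10.64 in WT and 9.62, 10.14 and 10.18 in the mutant, a difference of -0.75 ± 0.22 (SE, limma adjusted p = 0.428). Users of mevalonate-derived isoprenoids other than sterols had a median of 0.01 over 14 measured of 15, with 1 higher and 1 lower at that p. Trit1, which adds an isopentenyl group to transfer RNA, was higher by 0.41 ± 0.07 (SE, limma adjusted p = 0.265), and Ggps1, which makes geranylgeranyl diphosphate from farnesyl diphosphate, differed by -0.47 ± 0.16 (SE, limma adjusted p = 0.520).

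The fatty acid synthesis genes driven by the related factor SREBP-1 had a median of -0.01 over 13 measured of 14, with 0 higher and 1 lower at an unadjusted p under 0.05. Scd1, the stearoyl-CoA desaturase, stood apart within them at 8.36 and 7.52 in WT and 4.16, 4.64 and 3.94 in the mutant, a difference of -3.69 ± 0.37 (SE, limma adjusted p = 0.200). Its mutant levels lay around the lower quartile of the arrays, 4.26 to 4.32 over genes, so they may be background signal. None of these 3 lists had a gene past the threshold.

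Among the 4479 genes with a range of at least 0.5 log2 units over the 5 arrays and a full symbol, outside the lists used here, those whose centred profile lay nearest to the mean centred profile of the 7 genes were Ywhag, Mtg1, Eef1a1, Sh2b3 and Vcan, at Euclidean distances of 0.212 to 0.224 log2 units over 5 arrays. The 7 genes' own mean profile spanned 0.224 log2 units. The required range of 0.5 exceeds that span, so no candidate could match the profile closely, and genes with a smaller range were not compared.

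The cells carried erythroid transcripts throughout. Mean levels of 13 erythroid genes were 12.2 and 12.0 in WT against 11.8 to 11.9 in the mutant. Of the 13, 12 were lower on every mutant array. The same held for 9.73% of all genes and for 20.3% of the 8340 genes left after dim ones were set aside. All 13 erythroid genes belong to that brighter class. Slc4a1, the band 3 anion exchanger, read 13.4 to 13.6. The 10 early progenitor genes were higher on average in every mutant array, at means of 8.82 and 8.51 in WT and 9.33, 9.05 and 9.07 in the mutant, with a median difference of 0.15, 6 means higher and 4 lower. That separation rested on Podxl, which differed by 3.66: without it the groups overlapped, as the other 9 genes averaged 9.27 and 8.88 on the WT arrays and 9.37, 9.14 and 9.10 on the mutant arrays. Of those 9, Gata2 and Myc were higher on every mutant array, by 0.50 and 0.91 log2 units. Pcna and Mcm2, of the DNA replication machinery, were lower on every mutant array, each by 0.32 log2 units. Neutrophil transcripts remained after CD45 depletion, with means over the 16 genes of 7.96 and 6.94 in WT and 8.34, 8.85 and 7.22 in the mutant. These means overlapped between groups, single differences ran from -0.10 to 1.73, and the groups did not overlap in 1 gene, Chil3, a chitinase-like protein of myeloid cells, which was higher by 1.73 log2 units. Ptprc, which encodes CD45, read 7.13 and 6.43 in WT and 7.67, 7.40 and 6.06 in the mutant. WT replicate 2 was low in the neutrophil and progenitor means and for Hmgcs1, Lss and Cyp51. Other members differed: Srebf2 (9.03 against 8.79) and Insig1 (7.57 against 7.42) were higher in WT replicate 2 than in WT replicate 1. Sqle was nearly equal in these arrays, and Fdft1 was lower in WT replicate 2. Mutant replicate 3, also low in the neutrophil mean, was the highest array for Hmgcs1. The part of cell content in the differences of the sterol genes was not tested, and in such bulk samples fewer cells of a type and less RNA per cell cannot be told apart. Means over 14 macrophage genes were 5.68 and 5.66 in WT and 5.64 to 5.97 in the mutant, over 8 megakaryocyte genes 6.32 and 7.02 and 6.16 to 6.46, over 11 lymphocyte genes 5.55 and 5.18 and 5.07 to 5.47, and over 14 late erythroid genes 10.66 and 10.64 and 10.47 to 10.48.

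**Figure D4:**
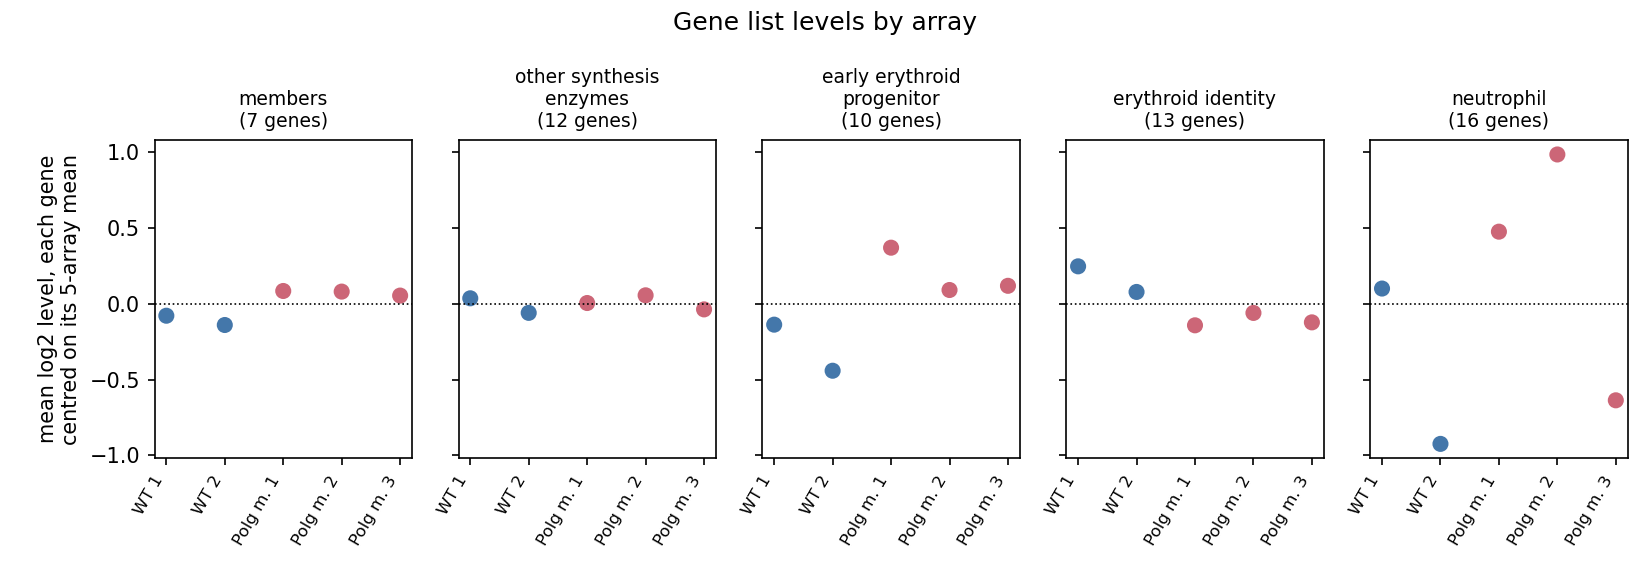
Mean log2 level of 5 gene lists in each array, after each gene was centred on its mean over the 5 arrays; WT is blue and Polg mutant red. The mean of the 7 members is higher in every mutant array, which depends on Lss and Cyp51, and that of the erythroid identity genes is lower. The early progenitor genes are higher through Podxl (without it the groups overlap). The other synthesis enzymes overlap, and the neutrophil genes are lowest in WT replicate 2 and mutant replicate 3.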

How the data were processed

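RNA from Ter119-selected marrow cells was measured in 2 WT and 3 Polg mutant samples. The authors deposited log2 values for 41345 probe sets, 1 column per array. The tools RMA and Partek 6.5 are listed, without their roles, per the submitters' processing notes. The genome build is not given in the sources used here, nor is the probe annotation. Deposited values run from 1.43 to 14.1, from which the log2 scale was inferred. Signal over background was not known, and the number of arrays limits the precision.

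Names came from the platform's annotation table, in which 23521 probe sets have 1 symbol, 1814 several and 16010 none. The brightest probe set of each singly named gene was kept. Genotype was the single term of a limma 3.58.1 fit (R 4.3.3) to all 22180 genes, with empirical Bayes moderation, two-sided p-values and Benjamini-Hochberg adjustment over all genes. The fit was also run on simulated data, which held no exact ties between arrays and so cannot show their effect. An exact permutation test of 2 against 3 arrays cannot go below p = 0.1. At least 2 of the 5 arrays tie exactly in 67.9% of genes. The step that made these ties is not known. limma's prior SD was 0.0376 over all genes and 0.170 over genes with 5 distinct values. The members tested in both fits were Sqle, Insig1 and Srebf2. Their unadjusted limma p was 0.182, 0.127 and 0.0839 over all genes, and 0.230, 0.223 and 0.147 over genes with 5 distinct values.

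The text names the members, and from each other sterol list up to 4 genes in each direction with groups that do not overlap and an unadjusted p under 0.05, by smallest p, plus Scap, Insig2, Srebf1, Polg, Atg7 and the 5 genes of nearest profile. Mvk, Pmvk, Mvd, Tm7sf2, Slc4a1, Podxl, Gata2, Myc, Pcna, Mcm2, Chil3 and Ptprc were named outside this rule after their values were seen. The members and lists were chosen with earlier results of these data known. Of 180 symbols in the 14 lists, 162 were measured. Alternatives covered the filter on dim genes, ties, moderation, normalization, probe set choice, the replicate number as a block, and leaving out each array; the progenitor mean without Podxl was added after seeing the data.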

Additional observations from a re-analysis of the deposited data

How the results depend on the processing

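In 14 alternatives 0 of the 7 sterol genes passed an adjusted p of 0.05, and all 93 recomputed differences of these genes kept their direction. Over all 22180 genes the same threshold called 713 higher and 1068 lower without WT replicate 1 and 511 and 413 without WT replicate 2, and in the other 12 fits at most 73 and 41. Among genes with 5 distinct values only Sqle, Insig1 and Srebf2 of the 7 remain, and the filter on dim genes removes Cyp51. Of the 93 directions, only those after renewed quantile normalization or centring of the arrays could have reversed. Filters, moderation and probe set choice leave the difference of a gene with 1 probe set unchanged. In each of the 7 genes the mutant arrays lie beyond or level with the nearer WT array. Leaving out an array or adding the replicate block therefore cannot change the sign.

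The median difference of the members moved to 0.17 after renewed quantile normalization and ran from 0.18 to 0.26 when each array was left out. Members higher at an unadjusted p under 0.05 were 2 among genes above a log2 of 6 (Hmgcs1, and Lss, which passes that filter through its mutant arrays alone), 0 among genes with 5 distinct values, where Lss is not tested, and 1 in every fit without 1 array (Hmgcs1 without WT replicate 1, Srebf2 without WT replicate 2, Lss otherwise). The replicate block pairs arrays that share only a number (deviations of same-numbered arrays correlated at 0.21 and -0.26 over 8187 genes). With this block 3 members were higher at that p (Lss, Cyp51 and Srebf2) and 1 lower (Insig1). Mutant replicate 3 has no WT array of its number and adds nothing to the block's differences, which equal those without that array. The block's test also has fewer degrees of freedom than the main fit. Of the other synthesis enzymes, 0 were higher at that p without moderation and with the replicate block, and leaving out each array gave 0 to 2 higher and 1 to 3 lower. The cause of these changes was not tested. Of 314 recomputed differences of named genes 2 reversed, both of Srebf1, to -0.0014 after quantile normalization and -0.14 without WT replicate 2 (0.23 without WT replicate 1), and 1 came past the threshold, Scd1 among genes with 5 distinct values (limma adjusted p = 0.0170), a filter not independent of the differences. Fits without a WT array assume that the lone WT array varies as the others do.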
